A study of Mus musculus with 22 samples.

Results

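The genes described here are the CREB-family transcription factors Creb1, Crem and Atf1, their coactivators Crtc1, Crtc2 and Crtc3, and the salt-inducible kinases Sik1, Sik2 and Sik3. They were found by gene symbol in the deposited expression table, and all 9 were present, each as 1 row, among 54514 gene symbols. RNA came from mpkCCD cells (clone mpkCCDc11-38 in the labels), an immortalised mouse line from the cortical collecting duct that was grown on permeable supports. The measurement was RNA-seq expression per gene in 22 libraries of 10 groups, given as TPM, a transcript level corrected for length and scaled to a fixed total per library.

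Unsorted WT cells without dDAVP gave 3 libraries, and unsorted WT cells with dDAVP gave 3. dDAVP (desmopressin) is an agonist of the V2 vasopressin receptor. The remaining 16 libraries came from 4 clones with a GFP reporter (C1, C11, C43, C50). Every clone was given dDAVP and sorted by GFP into negative and positive cells, each fraction with 2 libraries. According to the series title the reporter follows aquaporin-2 (Aqp2), the vasopressin-regulated water channel. Cells of all groups were kept in serum-free medium with dexamethasone, selenite and transferrin before collection. The labels name more than 1 dDAVP dose and duration without assigning them to libraries. Each reporter line is a single clone, and the WT cells were not sorted, so clone and sorting cannot be told apart when WT and reporter libraries are set side by side. The labels do not say that replicate libraries came from separate cultures, so the p-values measure the spread between these libraries, which may be technical.

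As background, vasopressin raises cAMP in principal cells of the collecting duct and activates protein kinase A, which phosphorylates CREB-family factors bound to cAMP response elements in gene promoters. The CRTC proteins are held in the cytoplasm by 14-3-3 proteins while SIK kinases keep them phosphorylated, and cAMP inhibits the SIKs, so that dephosphorylated CRTCs enter the nucleus and coactivate CREB. Crem and Sik1 are themselves known cAMP-induced genes, and repressor forms from an internal Crem promoter and the SIK1 kinase are known to limit the response. Much of this circuit acts through phosphorylation and localisation, which RNA levels do not report.

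The reference transcripts followed the labels. Aqp2 was 69.1 ± 5.43 TPM (SD, n = 3) without and 2868 ± 139 TPM (SD, n = 3) with dDAVP in WT cells, and higher in the GFP-positive than in the GFP-negative fraction of 4 of 4 clones. Of 12 principal-cell markers, 10 averaged at least 1 TPM, while Elf5 and Scnn1b were low, and the summed level ran from 656 to 10827 TPM, highest in GFP-positive C43 cells. Of the markers of any list, 0 were at 0 TPM in all 22 libraries. Intercalated-cell markers summed to 22.1 to 119 TPM (3 of 7 at 1 TPM or more) and proximal tubule markers to 0.94 to 16.1 TPM (1 of 4). In GFP-positive cells the intercalated sum was higher without overlap in C1 and C50, while the fractions overlapped in C11 and C43. The summed levels were 0.01 to 1.71 TPM for fibroblast markers (0 of 5), 0 to 1.29 TPM for endothelial markers (0 of 3) and 3.20 to 12.95 TPM for immune markers (1 of 3). The number of genes above 0 TPM divided the libraries into 10 with 17206 to 20288 genes and 12 with 23174 to 31393, and each set held WT libraries of both treatments and clone libraries of both fractions. GFP-negative replicate 1 of clone C50 stood apart. Ribosomal-protein transcripts made up 8.32% of its TPM, against 3.85% to 6.12% in the other 21 libraries. In that library 9 of 9 family genes and 70.6% of 13113 genes were lower than in replicate 2, so results that rest on it are given with and without it.

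The 9 genes were all expressed in every library. By TPM, Crtc2 was the most abundant (median 43.7 over 22 libraries, range 24.2 to 61.1), followed by Atf1 (median 37.1, range 22.5 to 45.4) and Sik1 (median 26.9, range 15.2 to 60.9). Crem had a median of 23.2 TPM (range 9.99 to 37.4) and Creb1 one of 17.2 TPM (range 11.9 to 22.9). Sik3, Sik2 and Crtc1 had medians of 16.8, 16.8 and 16.4 TPM. Crtc3 was the least abundant, with a median of 4.50 TPM and a range of 2.00 to 10.6. Within the families, Atf1 supplied on average 47.3% of the summed CREB-factor TPM, Crtc2 67.5% of the CRTC TPM and Sik1 46.7% of the SIK TPM.

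**Figure D1:**
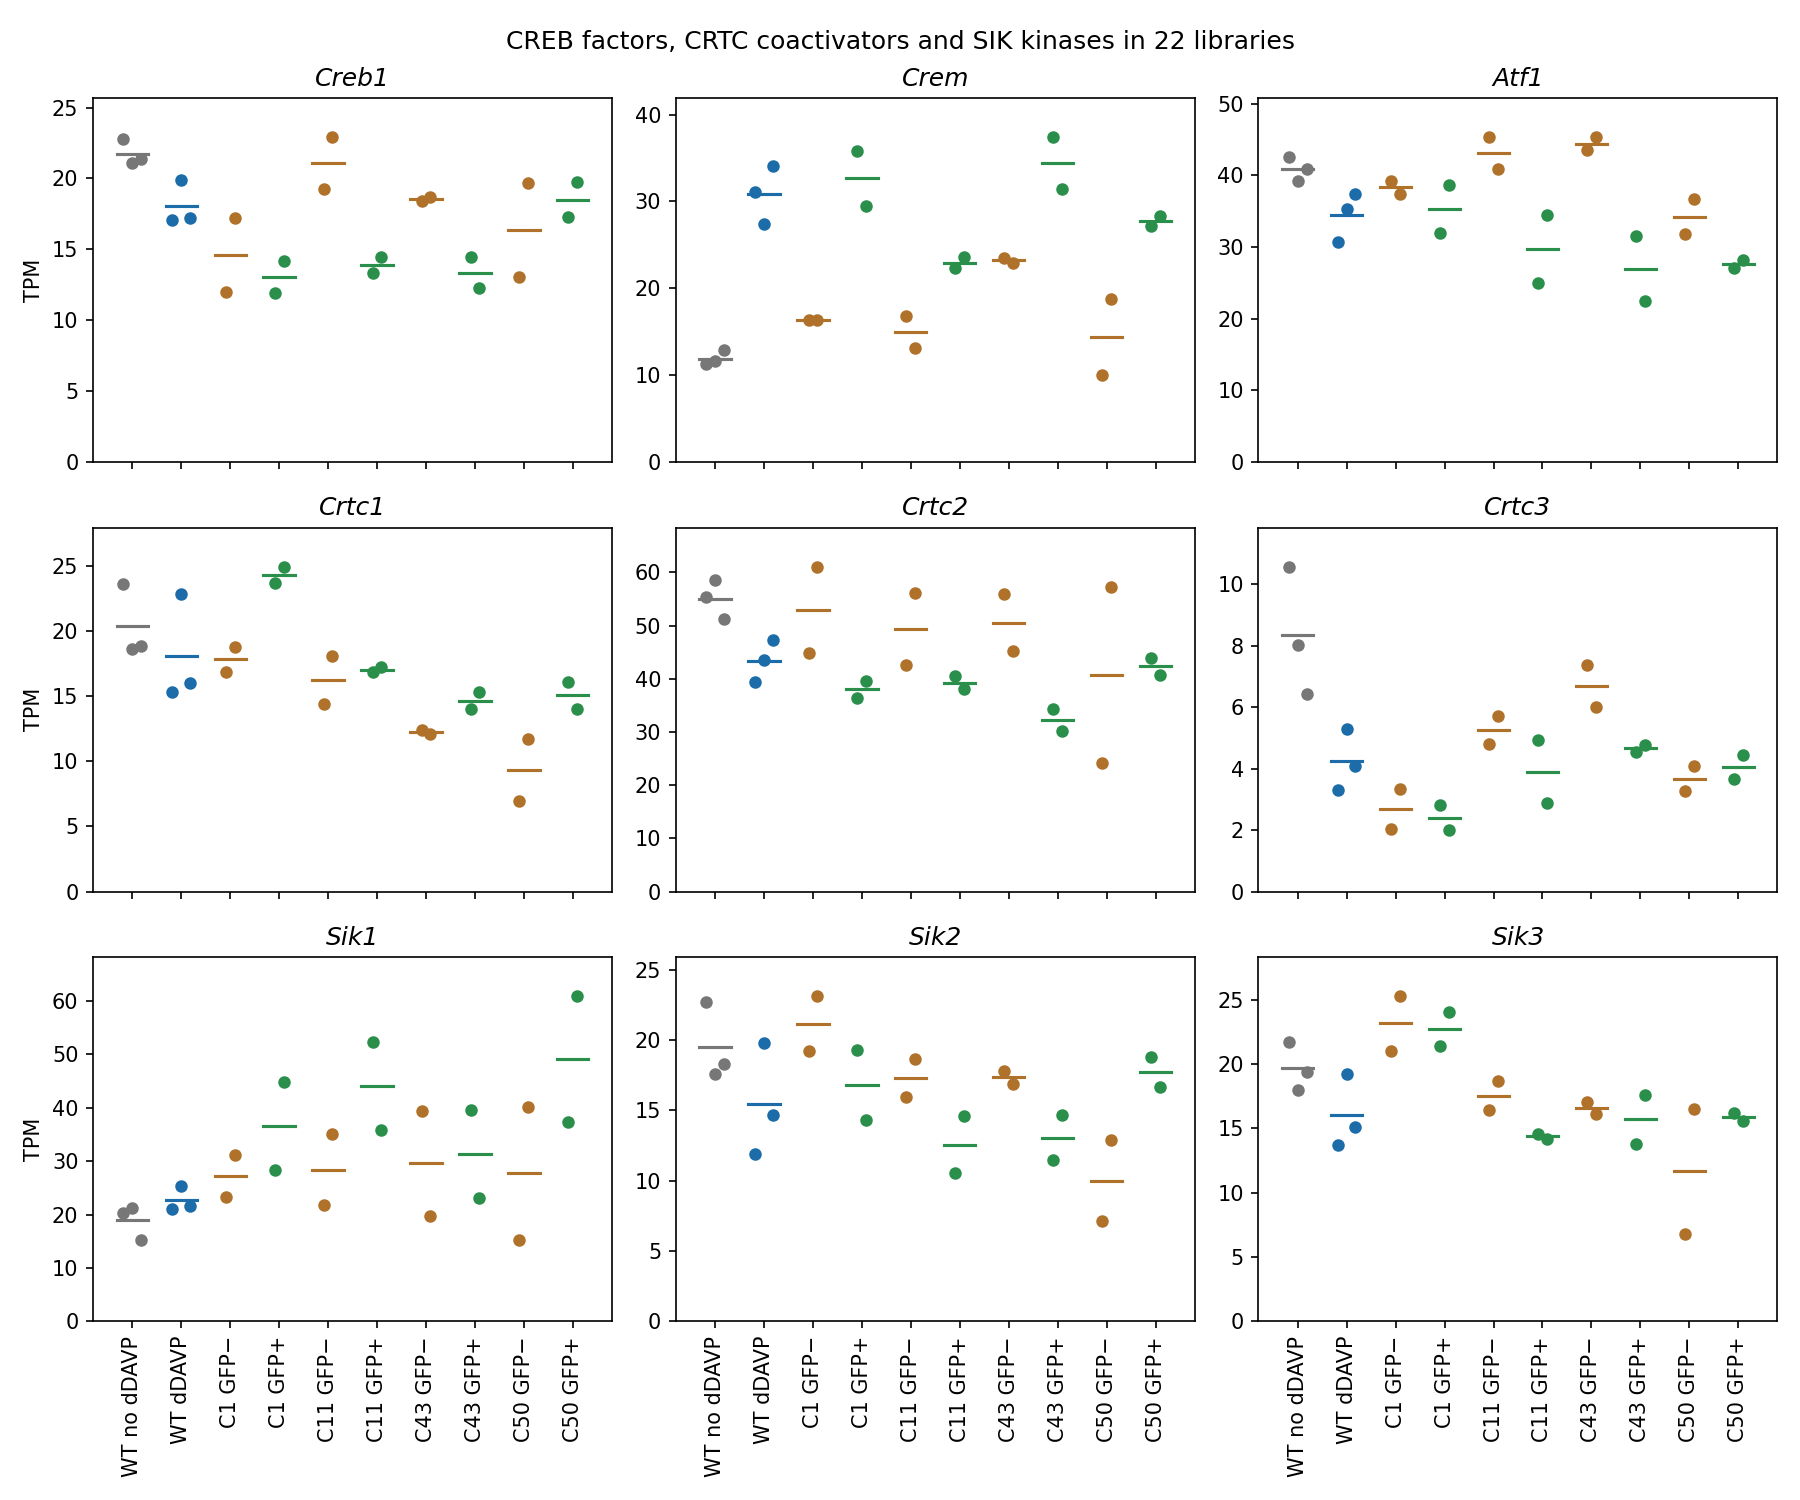
TPM of each of the 9 genes (vertical axis, from 0) in the 10 groups (horizontal axis). Each point is 1 library and each bar a group mean (n = 3 for WT, n = 2 for clone fractions). The Crem points of WT cells with dDAVP and of the GFP-positive fractions lie at 22.3 TPM or more, while WT cells without dDAVP lie at 12.9 TPM or less.

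Promoter sequences were examined because CREB-family factors bind the cAMP response element TGACGTCA and its half-site TGACG. Both were searched on both strands in the 250 bases before each RefSeq start site (build GRCm38.p6), and every full element also contains half-sites. The RefSeq table held promoters of 6 of the 9 genes (Creb1, Atf1, Crtc1, Crtc3, Sik2 and Sik3). The full element was in 0 of these 6, and half-sites were in 2, Atf1 and Sik3. Over all 32851 promoters of the table, 1.55% held the full element and 17.8% a half-site. The stretches around the half-sites of Atf1 (chr15:100227754-100227788, plus strand) and Sik3 (chr9:46012672-46012782, plus strand) are shown because they are the ones with a match. Half-sites are in capitals, as TGACG or, read from the other strand, CGTCA.
Atf1: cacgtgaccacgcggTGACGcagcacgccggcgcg
Sik3: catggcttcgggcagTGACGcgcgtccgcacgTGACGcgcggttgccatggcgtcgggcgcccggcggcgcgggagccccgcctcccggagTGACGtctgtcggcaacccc
The 3 half-sites of Sik3 lie 133, 116 and 57 bases before its start, and the single one of Atf1 lies 90 bases before. These are letter matches and no evidence of binding.

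The first comparison asks which of these genes differ between WT cells with and without dDAVP. Crem rose, and it was the only 1 of the 9 genes to pass the threshold (limma, adjusted p under 0.05 over 13494 genes). Among all genes tested, 8.88% passed, 2.37% higher and 6.51% lower. The groups did not overlap for 5 of the 9 genes, higher for Crem and lower for Creb1, Atf1, Crtc2 and Crtc3. The same held for 35.8% of all genes tested. The median change of the 9 genes was -0.26 on the log2(TPM + 1) scale, and that of all genes was -0.16, a shift that median-ratio scaling moved to -0.001 and quantile normalization to -0.02. Under these scalings the share of higher calls among all called genes went from 26.7% to 63.7% and 54.1%. In bulk RNA, fewer cells that express a gene and less RNA per cell cannot be told apart.

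The second comparison asks how the 9 genes differ between GFP-positive and GFP-negative cells of the same clone, all with dDAVP. Crem and Crtc1 rose and Atf1 fell in GFP-positive cells, 3 of 9 genes, in a comparison in which 35.3% of 13113 genes passed the threshold (12.1% higher, 23.2% lower). Without GFP-negative replicate 1 of C50, 5 of 9 passed, Creb1 and Crtc2 in addition, both lower, among 46% of all genes. The fractions were apart in the same direction in all 4 clones for 1 of the 9 genes, Crem, and for 18.9% of all genes. Crtc2 was apart as well, lower in all 4 clones, once GFP-negative replicate 1 of C50 was left out. That leaves 1 library in the fraction, and the share of all genes was not computed there. The share of higher calls among all called genes was 34.2% as deposited, 51.1% after median-ratio scaling and 50.5% after quantile normalization. The WT and the clone comparison share no libraries.

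**Figure D2:**
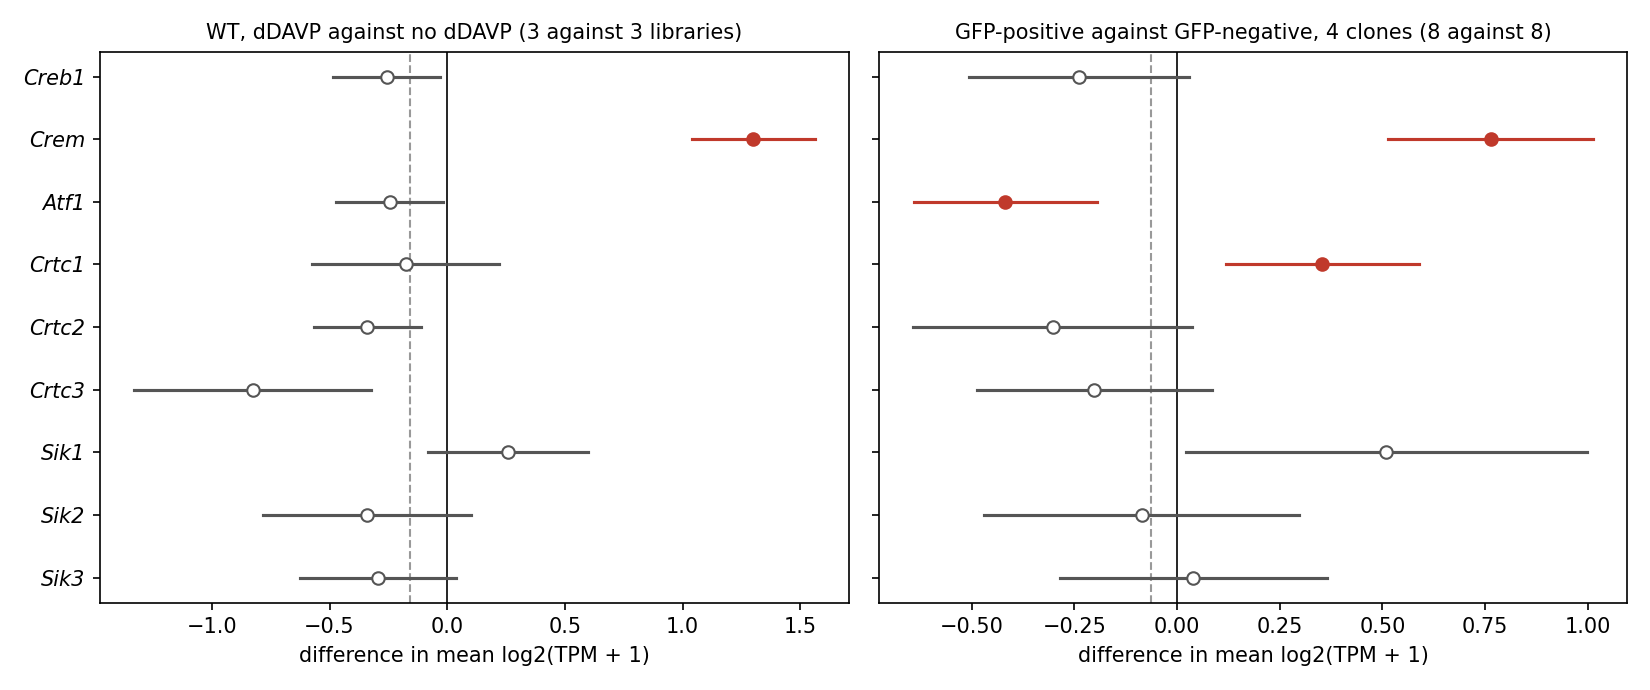
Difference in mean log2(TPM + 1) with its 95% confidence interval for the 9 genes, dDAVP against no dDAVP in WT cells (left) and GFP-positive against GFP-negative cells with the clone as covariate (right). Filled red points passed an adjusted p of 0.05, and the dashed line is the median of all genes tested (-0.16 and -0.06). Crem is the gene to the right of 0 and filled in both panels.

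Crem (cAMP response element modulator, ENSMUSG00000063889) encodes activator and repressor forms from 1 gene. In WT cells it stood at 11.2, 11.6 and 12.9 TPM without dDAVP and at 31.1, 27.4 and 34.1 TPM with dDAVP. The lowest treated library was thus above the highest untreated one. The ratio of means was 2.59 and the log2 change 1.30 ± 0.11 (SE, limma adjusted p 0.0013). The call held in 16 of 16 alternative settings, with changes from 1.23 to 1.501.

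Between the GFP fractions, Crem was 16.3 and 16.3 TPM in GFP-negative and 35.9 and 29.5 TPM in GFP-positive C1 cells. In C11 it was 16.8 and 13.1 against 22.3 and 23.7 TPM, and in C43 23.5 and 22.9 against 37.4 and 31.5 TPM. In C50 it was 9.99 and 18.8 against 27.2 and 28.3 TPM. Both GFP-positive libraries were above both GFP-negative libraries in each clone, although GFP-negative C43 cells overlapped GFP-positive C11 cells. The change over the 4 clones was 0.76 ± 0.12 (SE, limma adjusted p 0.000158), and 0.67 (adjusted p 1.75e-05) without GFP-negative replicate 1 of C50. It passed in 31 of 32 alternative settings. The exception was the set of 8 clone libraries with fewer genes detected, where the change was 0.98 (adjusted p 0.0836) and 1.96% of genes passed.

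Ordered by group mean, Crem ran from 11.9 TPM in WT cells without dDAVP to 34.4 TPM in GFP-positive C43 cells, a ratio of 2.89. The libraries of neighbouring groups overlapped at 7 of 9 steps in this order. The gaps lay between GFP-negative C1 cells (16.3 TPM) and GFP-positive C11 cells (23.0 TPM), and between GFP-negative C43 (23.2 TPM) and GFP-positive C50 cells (27.7 TPM). Without the C50 library that stands apart 5 of 9 steps overlapped. GFP-negative C50 cells (18.8 TPM) then lay between GFP-negative C1 and GFP-positive C11 cells and apart from both, and untreated WT cells were apart from GFP-negative C11 cells (14.96 TPM). WT cells with dDAVP (30.9 TPM) stood among the GFP-positive fractions, and 3 of the 4 GFP-negative fractions stood next to untreated WT cells although they too had received dDAVP.

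The values are gene totals. GENCODE (release M21) lists 39 transcripts of Crem, and activator and repressor forms were not separated here. It also shares 472 exonic bases with Gm6225 on the opposite strand, which was listed at 0.19 to 1.24 TPM, and the labels do not state whether strand was used.

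Creb1 (ENSMUSG00000025958), the constitutive cAMP-responsive activator, was 22.8, 21.1 and 21.4 TPM without and 17.1, 19.9 and 17.2 TPM with dDAVP in WT cells. The groups were apart, with the treated libraries lower, but the change of -0.26 (95% confidence interval -0.49 to -0.03) had a limma adjusted p of 0.127. Over 16 alternative settings it ran from -0.325 to -0.032 (adjusted p 0.062 to 0.824). With single libraries left out it stayed between -0.325 and -0.221. GFP-negative libraries ran from 11.98 to 22.9 TPM (median 18.6) and GFP-positive libraries from 11.9 to 19.7 TPM (median 14.3). The change was -0.24 (adjusted p 0.158). Without GFP-negative replicate 1 of C50 it was -0.33 (adjusted p 0.0129), and without clone C50 it was -0.38 (adjusted p 0.015).

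Atf1 (ENSMUSG00000023027), a close relative that can pair with CREB1, was 42.6, 39.2 and 40.9 TPM without and 30.7, 35.3 and 37.4 TPM with dDAVP. Here too the groups were apart and the change of -0.24 did not pass (limma adjusted p 0.139). The range was -0.305 to -0.063 over 16 alternative settings (adjusted p 0.0691 to 0.67), and -0.305 to -0.166 with single libraries left out. In the clones Atf1 was 39.2 and 37.4 TPM in GFP-negative against 32.01 and 38.6 TPM in GFP-positive C1 cells, where the fractions overlapped. The corresponding values were 45.3 and 40.9 against 24.9 and 34.5 TPM in C11. In C43 they were 43.5 and 45.4 against 31.5 and 22.5 TPM, and in C50 31.8 and 36.7 against 27.0 and 28.2 TPM. GFP-positive libraries were lower without overlap in these 3 clones. The change was -0.42 ± 0.10 (SE, limma adjusted p 0.00562), against -0.45 without GFP-negative replicate 1 of C50 (adjusted p 0.00255). With the 4 clone means as replicates the adjusted p was 0.0595, and among the 8 libraries with fewer genes detected it was 0.264 (change -0.46).

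The composition of the CREB factors is described by shares, on which no test was made. Crem supplied 14.7% to 17.1% of the summed Creb1, Crem and Atf1 TPM in untreated WT cells and 33.2% to 39.4% with dDAVP. Its share was 17% to 27.5% in the 8 GFP-negative libraries and 32.6% to 47.5% in the 8 GFP-positive ones, 2 ranges that do not overlap. The mean Atf1 share in WT cells went from 54.9% to 41.3%, and its mean TPM from 40.9 to 34.5. Shares of 1 sum depend on each other, so the rise of Crem by itself lowers the Atf1 share. The summed TPM of the 3 genes ranged from 54.8, in the C50 library that stands apart, to 88.8 over the 22 libraries.

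**Figure D3:**
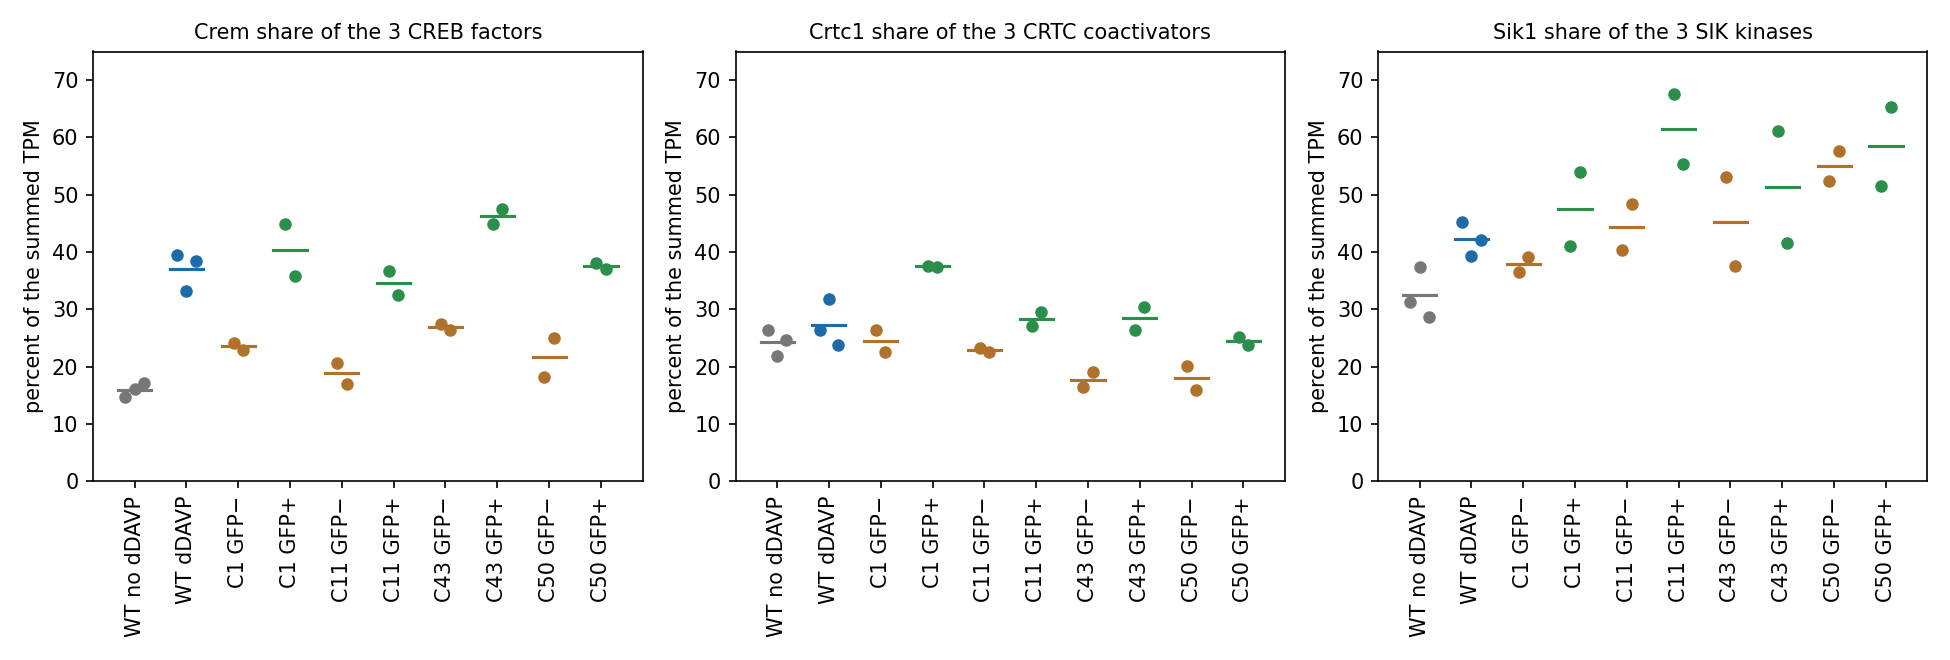
Share of Crem in the summed TPM of Creb1, Crem and Atf1 (left), of Crtc1 in that of Crtc1, Crtc2 and Crtc3 (middle) and of Sik1 in that of Sik1, Sik2 and Sik3 (right), in percent, by group. Each point is 1 library and each bar a group mean. Crem takes 32.6% to 47.5% in GFP-positive libraries, above its 17% to 27.5% in GFP-negative ones.

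Crtc1 (ENSMUSG00000003575), a CREB coactivator best known from the brain, showed no separation by dDAVP in WT cells. It was 23.6, 18.6 and 18.8 TPM without and 15.3, 22.8 and 16.04 TPM with dDAVP. The log2 change was -0.18 (95% confidence interval -0.58 to 0.22, limma adjusted p 0.496), and it was 0.05 after quantile normalization. With single WT libraries left out it ran from -0.35 (without dDAVP replicate 2) to -0.07 (without untreated replicate 1). Between fractions it was 16.9 and 18.8 against 23.7 and 24.9 TPM in C1, and 14.4 and 18.1 against 16.8 and 17.2 TPM in C11. In C43 it was 12.4 and 12.1 against 14.01 and 15.3 TPM, and in C50 6.93 and 11.7 against 16.1 and 14.1 TPM. GFP-positive libraries were higher without overlap in 3 clones, and the exception was C11. The change was 0.35 ± 0.11 (SE, limma adjusted p 0.0207), and 0.26 (adjusted p 0.00858) without GFP-negative replicate 1 of C50.

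The Crtc1 call was the least stable of the 3. It was lost in 6 of 32 alternative settings, among them without clone C1 (0.33, adjusted p 0.111), without clone C43 (0.39, adjusted p 0.061) and with clone means as replicates (adjusted p 0.118). Within the 8 clone libraries with more genes detected the change was 0.14 (adjusted p 0.369). The lowest group mean of Crtc1 was in GFP-negative C50 cells (9.31 TPM), which include the library that stands apart (11.7 TPM without it, still the lowest), and the highest in GFP-positive C1 cells (24.3 TPM).

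Crtc2 (ENSMUSG00000027936), the coactivator known for fasting gluconeogenesis in liver, was 55.5, 58.6 and 51.3 TPM without and 39.4, 43.5 and 47.4 TPM with dDAVP. The treated libraries lay below the untreated ones, and the change of -0.34 fell short of the threshold (limma adjusted p 0.0687). It passed (-0.37, adjusted p 0.0277) with a covariate for the number of genes detected, in 1 of 16 alternative settings. Across these settings the change ran from -0.403 to -0.17, with adjusted p up to 0.287. With single libraries left out it ran from -0.403 to -0.272. GFP-negative libraries had a median of 50.6 TPM (range 24.2 to 61.1) and GFP-positive libraries one of 38.9 TPM (range 30.2 to 44.0). The lowest value, 24.2 TPM, was that of the C50 library that stands apart. The change was -0.30 (adjusted p 0.16) with that library and -0.46 (adjusted p 0.000603) without it. GFP-positive libraries were lower without overlap in 3 clones, C50 excepted. In C50, GFP-negative replicate 2 (57.2 TPM) was above both GFP-positive libraries (44.0 and 40.7 TPM).

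Crtc3 (ENSMUSG00000030527), the least abundant of the 9 genes, was 10.6, 8.02 and 6.42 TPM without and 3.32, 5.30 and 4.10 TPM with dDAVP. The groups were apart, with a ratio of 0.509. The change of -0.83 (95% confidence interval -1.33 to -0.32) missed the threshold (limma adjusted p 0.0562). It passed with a pseudocount of 0.1 (-0.96, adjusted p 0.0467), with a covariate for the number of genes detected (-0.905, adjusted p 0.0175) and without WT dDAVP replicate 2 (-0.97, adjusted p 0.0384). These were 3 of 16 alternative settings, across which the change ran from -0.98 to -0.623, with adjusted p up to 0.185. Between GFP fractions the change was -0.20 (adjusted p 0.27), and -0.13 without GFP-positive replicate 2 of C11, with medians of 4.45 TPM in GFP-negative and 4.06 TPM in GFP-positive libraries. Its level differed between clones, from a mean of 2.41 TPM in GFP-positive C1 cells to 6.70 TPM in GFP-negative C43 cells.

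Among the CRTC genes, the summed TPM averaged 83.8 without and 65.7 with dDAVP in WT cells. The share of Crtc1 was higher in the GFP-positive libraries of each clone, with means of 24.5% against 37.5% in C1, 22.9% against 28.3% in C11, 17.8% against 28.4% in C43 and 18.1% against 24.5% in C50. Crtc2 supplied 57.9% to 78.4% in all libraries.

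Sik1 (ENSMUSG00000024042), the cAMP-inducible member of the kinase family, was 20.3, 21.3 and 15.2 TPM without and 21.1, 25.4 and 21.6 TPM with dDAVP. The groups overlapped, and the change was 0.26 (95% confidence interval -0.08 to 0.60, limma adjusted p 0.263). It was 0.12 (adjusted p 0.567) without replicate 3 of the untreated cells. Over 16 alternative settings Sik1 changed by 0.116 to 0.486, with adjusted p from 0.0708 to 0.579. In the clones it was 23.2 and 31.1 against 28.4 and 44.9 TPM in C1, and 21.8 and 35.1 against 52.3 and 35.8 TPM in C11. In C43 it was 39.5 and 19.8 against 39.6 and 23.0 TPM, and in C50 15.3 and 40.1 against 37.3 and 60.9 TPM. The GFP-positive mean was higher in each of the 4 clones, while the fractions were apart only in C11. Replicates of 1 fraction differed widely, as in GFP-negative C50 cells, so that most fractions overlapped. In each clone every GFP-positive library was above the GFP-negative library of the same number, though whether the numbers pair libraries is not known.

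The Sik1 change between fractions was 0.51 (95% confidence interval 0.02 to 1.00), with a limma adjusted p of 0.0996. It passed in 5 of 32 alternative settings, among them median-ratio scaling (0.59, adjusted p 0.03), quantile normalization (0.59, adjusted p 0.0233), a covariate for the number of genes detected (0.49, adjusted p 0.00845) and leaving out GFP-negative replicate 1 of C43 (0.63, adjusted p 0.0394). The remaining setting was a replicate block, which treats same-numbered libraries as paired. Without GFP-negative replicate 1 of C50 the Sik1 change was 0.35 (adjusted p 0.151). None of the neighbouring groups in the order of Sik1 means was apart, although the means ran from 18.9 TPM in untreated WT to 49.1 TPM in GFP-positive C50 cells.

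Sik2 (ENSMUSG00000037112) was 22.7, 17.6 and 18.3 TPM without and 11.9, 19.8 and 14.6 TPM with dDAVP, a change of -0.34 (limma adjusted p 0.257). With single WT libraries left out it ran from -0.525 (without dDAVP replicate 2) to -0.18 (without dDAVP replicate 1). Among 16 alternative settings Sik2 reached -0.107, with adjusted p from 0.0625 to 0.67. Between fractions it changed by -0.09 (95% confidence interval -0.47 to 0.30, adjusted p 0.756), and by -0.24 (adjusted p 0.135) without GFP-negative replicate 1 of C50, with medians of 17.3 and 14.6 TPM. The clones did not point 1 way. The change was -0.32 in C1, -0.45 in C11 and -0.39 in C43, and 0.82 in C50 (adjusted p 0.0369 within that clone). That clone gave 0.43 (adjusted p 0.228) without its GFP-negative replicate 1. Without clone C50 the change was -0.39 (adjusted p 0.0132). Sik2 shares 1429 exonic bases with Ppp2r1b on the opposite strand, a gene at 13.3 to 31.3 TPM, so reads of this stretch may be counted for either gene.

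Sik3 (ENSMUSG00000034135) was 21.7, 17.99 and 19.4 TPM without and 13.7, 19.3 and 15.1 TPM with dDAVP, a change of -0.29 (limma adjusted p 0.206), which ran from -0.43 to -0.19 without the same libraries. Among 16 alternative settings Sik3 reached -0.062, with adjusted p from 0.0574 to 0.74. Its fraction medians were 16.8 TPM in GFP-negative and 15.9 TPM in GFP-positive libraries. The change was 0.04 (95% confidence interval -0.28 to 0.36, adjusted p 0.873), and -0.11 (adjusted p 0.231) without GFP-negative replicate 1 of C50. The highest group means of Sik2 and Sik3, 21.2 and 23.2 TPM, were both in GFP-negative C1 cells. The lowest, 10.0 and 11.7 TPM, were both in GFP-negative C50 cells and rested on the library that stands apart (7.13 and 6.81 TPM). Without it the lowest means, 12.6 and 14.4 TPM, were both in GFP-positive C11 cells.

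Within single clones the spread was shared over all clone libraries and 2 libraries stood in each fraction. Crem rose by 0.95 in C1 (limma adjusted p 0.0306) and 0.96 in C50 (adjusted p 0.0113). In C50 the change was 0.54 without GFP-negative replicate 1 (adjusted p 0.0425) and 1.385 without GFP-negative replicate 2 (adjusted p 9e-05). In C11 it changed by 0.60 (adjusted p 0.167) and in C43 by 0.55 (adjusted p 0.143). With GFP-negative replicate 1 of C50 left out, the C11 and C43 values stayed as they were while the shared spread was re-estimated. Crem then passed in C11 (adjusted p 0.0142) and C43 (adjusted p 0.0137), and so in all 4 clones, as it also did with replicate 2 left out instead. Atf1 fell by 0.72 in C43 (adjusted p 0.0229) and changed by -0.12, -0.54 and -0.30 in C1, C11 and C50. Crtc1 rose by 0.68 in C50 (adjusted p 0.0291) and changed by 0.43, 0.07 and 0.24 in C1, C11 and C43. The Crem call was lost in 12 of 25 alternative settings in C1 (adjusted p up to 0.228, for example without any single C1 library) and in 2 of 25 in C50, without either GFP-positive library. That of Atf1 in C43 was lost in 7 of 25, among them both scalings and 3 of the 4 C43 libraries left out in turn. In C50, that of Crtc1 was lost in 5 of 25 and that of Sik2 in 9 of 25, both among others without GFP-negative replicate 1 (Crtc1 0.34 and Sik2 0.43). In C11 and C43 Crem passed after either scaling. The number of the 9 genes that passed was 1 in C1, 0 in C11 (3 at an unadjusted p under 0.05), 1 in C43 and 3 in C50. The shares over all genes were 7.22%, 7.94%, 16.3% and 26.6%. Without GFP-negative replicate 1 of C50 the counts were 2 in C1, 2 in C11 and 3 in C43, among 15.9%, 17.7% and 29.6% of all genes, and 1 in C50, among 23.7%. In C50 the count was 6 without GFP-negative replicate 2, where 52.2% of all genes passed, and 0 without GFP-positive replicate 1 or replicate 2, where 14.4% and 13.7% passed.

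**Figure D4:**
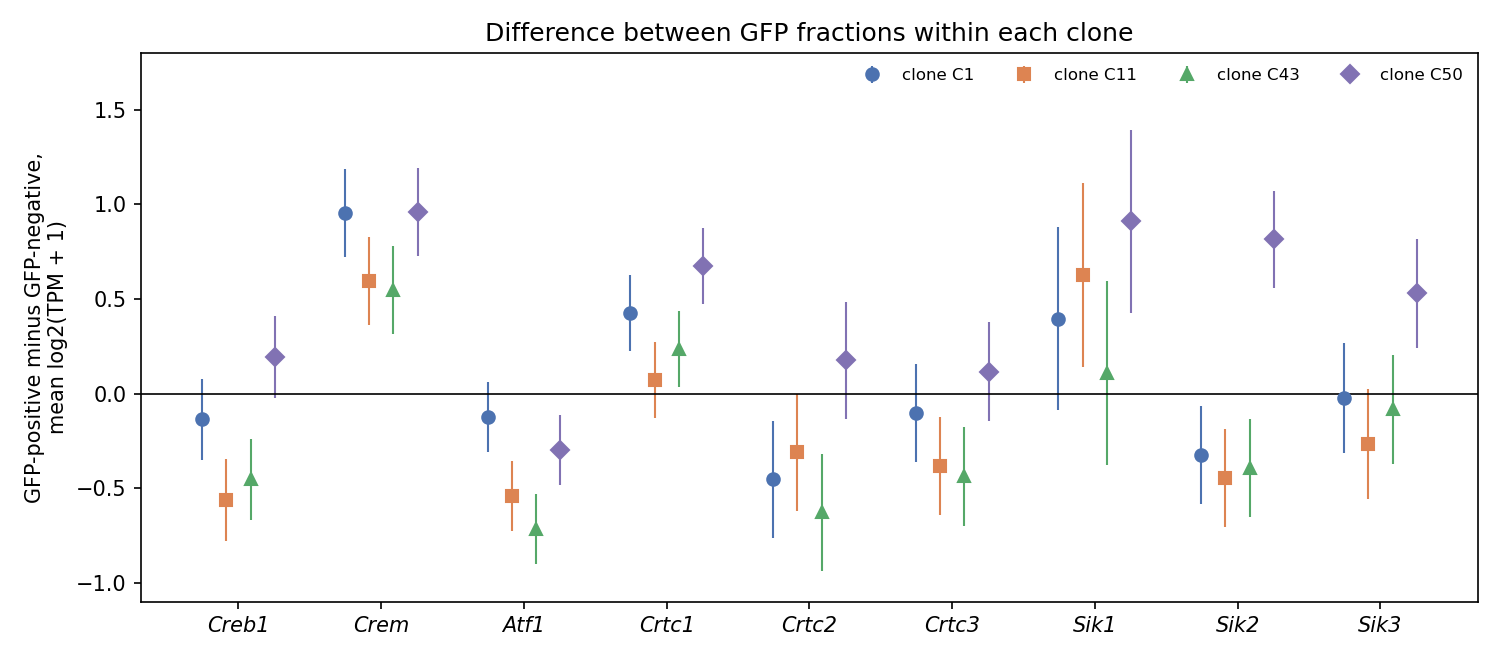
GFP-positive minus GFP-negative difference in mean log2(TPM + 1) for each of the 9 genes in clones C1 (circles), C11 (squares), C43 (triangles) and C50 (diamonds), with standard errors. Crem lies above 0 in all 4 clones (0.55 to 0.96, the C50 value being 0.54 without GFP-negative replicate 1 of C50). Atf1 lies below 0 (-0.72 to -0.12, the C1 value being 0.01 without GFP-positive replicate 1 of C1). The C50 value of Sik2 (0.82, and 0.43 without GFP-negative replicate 1 of C50) lies apart from the other 3 clones.

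Whether the fraction difference itself varied between clones was tested by the interaction of fraction and clone. With limma, 0 of the 9 genes passed (1 at an unadjusted p under 0.05, Sik2 with an unadjusted p of 0.0143), as against 0.869% of all genes. This count depended on 1 library. Without GFP-negative replicate 2 of C50, which leaves the library that stands apart as the only one of its group, 6 of 9 passed and so did 38.6% of all genes, and without replicate 1 it was 0 of 9. Levels whatever the fraction differed between clones for 3 of 9 genes, Crtc1 (limma adjusted p 0.00655), Crtc3 (adjusted p 0.0118) and Crem (adjusted p 0.0495), as they did for 28% of all genes. The Crem call was lost in 19 of 28 alternative settings. That of Crtc1 was lost without clone C1 (adjusted p 0.268), and that of Crtc3 without clone C1 (adjusted p 0.362) or clone C43 (adjusted p 0.0807).

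The other genes of the pathway are taken from lists of known components, whose counts are read against the shares of all genes called, 8.88% with dDAVP and 35.3% between GFP fractions. The latter share was 46% without GFP-negative replicate 1 of C50, 35.7% after median-ratio scaling and 38.7% after quantile normalization. The share with dDAVP was 6.68% and 6% after these scalings. Among 7 tested CREB-related factors outside the 9 genes, 0 passed with dDAVP (limma, 2 at an unadjusted p under 0.05), while 2 rose and 1 fell in GFP-positive cells. Creb3l2, a membrane-bound factor cleaved in the Golgi, rose from 17.3 ± 5.51 to 31.1 ± 8.61 TPM (SD, n = 8 each), a change of 0.84 (limma adjusted p 0.000945). Creb3, of the same type, rose by 0.22 (adjusted p 0.00728). The gene that fell, named after its value was seen, was Creb5, from 3.81 ± 1.22 to 0.804 ± 0.80 TPM (SD, n = 8 each), a change of -1.48 (adjusted p 0.000303). The counts were the same without GFP-negative replicate 1 of C50, and 3 rose and 1 fell after either scaling. Of 5 cofactors, which include the acetyltransferase genes Crebbp and Ep300, 0 passed with dDAVP (2 at an unadjusted p under 0.05), and 1, Taf4b, named after its value was seen, fell in GFP-positive cells (2 without GFP-negative replicate 1 of C50). Among 5 other CREB kinases, Camk1, a calcium-calmodulin kinase, was the 1 that passed and fell in both comparisons, by 0.30 with dDAVP (adjusted p 0.0477) and by 0.16 in GFP-positive cells (adjusted p 0.0459). Neither Camk1 call held under another scaling. With dDAVP the adjusted p was 0.274 after median-ratio scaling and 0.0991 after quantile normalization, and between fractions it was 0.475 and 0.393. The fraction count of 0 higher and 1 lower became 1 and 0 after either scaling, where the kinase gene Rps6ka5 passed (0.61, adjusted p 0.0394, and 0.62, adjusted p 0.0247, against 0.54 and 0.107 as deposited). It became 0 and 2 without GFP-negative replicate 1 of C50.

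The proteins that retain or release the CRTCs were counted in the same way. Of 7 genes for 14-3-3 proteins, 0 passed with dDAVP (0 at an unadjusted p under 0.05), and 5 fell in GFP-positive cells, with a median of -0.24 against -0.06 for all genes, of which 23.2% fell. Sfn, the epithelial 14-3-3 sigma, fell from 142 ± 30.6 to 38.6 ± 8.69 TPM (SD, n = 8 each), a change of -1.86 (limma adjusted p 3.83e-08). Ywhah changed by -0.57 (adjusted p 7.65e-06), Ywhag by -0.32 (adjusted p 0.0264) and Ywhae by -0.24 (adjusted p 0.00744). The count was 2 of 7 after median-ratio scaling, 3 of 7 after quantile normalization, and 5 of 7 without GFP-negative replicate 1 of C50, where 17.5%, 19.2% and 32.6% of all genes fell. Sfn and Ywhah passed under both scalings, and Ywhag under neither. Of 7 tested genes for phosphatases that act on CRTCs and for the ubiquitin ligase of CRTC2, 0 passed with dDAVP (1 at an unadjusted p under 0.05), and 2 rose and 2 fell in GFP-positive cells, against 35.3% of all genes called in either direction. Between fractions 3 rose and 1 fell after either scaling, and without GFP-negative replicate 1 of C50 2 rose and 4 fell. The calcineurin catalytic genes Ppp3ca and Ppp3cc rose by 0.34 each (adjusted p 0.0136 and 0.00462). With dDAVP, Ppp3cc was 0.22 higher (adjusted p 0.205) and passed after median-ratio scaling and quantile normalization (0.39 in both, adjusted p 0.0493 and 0.0483). Ppp3cb, the third of them, fell by 0.38 (adjusted p 0.0495) and did not pass under either scaling (adjusted p 0.10 and 0.134), and the PP2A catalytic gene Ppp2cb fell by 0.35 (adjusted p 0.00201).

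Upstream of the SIKs, 0 of 5 genes of the activating LKB1 complex passed with dDAVP (1 at an unadjusted p under 0.05), and 1 rose in GFP-positive cells. This was Cab39l, a scaffold of the complex, at 79.9 ± 11.7 against 113 ± 19.6 TPM (SD, n = 8 each), a change of 0.50 (limma adjusted p 0.00132). The count was 1 higher and 1 lower without GFP-negative replicate 1 of C50. With dDAVP, Cab39l was 0.15 higher (adjusted p 0.254) and passed after median-ratio scaling (0.32, adjusted p 0.0375) but not after quantile normalization (adjusted p 0.128). Among 3 tested class IIa histone deacetylases, which SIKs phosphorylate, Hdac5 was the 1 that passed as deposited. It fell by 0.85 with dDAVP, from 31.4 ± 4.34 to 16.9 ± 1.54 TPM (SD, n = 3 each, adjusted p 0.0111), and by 0.52 in GFP-positive cells (adjusted p 0.0349), and it passed in both comparisons under both scalings. Between fractions Hdac4 was 0.39 higher (adjusted p 0.102) and passed after median-ratio scaling (0.47, adjusted p 0.0189) and quantile normalization (0.48, adjusted p 0.00887). Hdac5 and Hdac7, 2 of the 3, fell without GFP-negative replicate 1 of C50. Of 9 tested AMPK-related kinases other than the SIKs, Melk, a kinase of dividing cells, fell by 0.80 with dDAVP (adjusted p 0.00606) and by 1.16 in GFP-positive cells (adjusted p 0.000197). Melk passed in both comparisons under both scalings. Between fractions it was the 1 that passed as deposited, and 2 fell without GFP-negative replicate 1 of C50, while 1 rose and 1 fell after median-ratio scaling. Nuak2 fell by 0.41 with dDAVP (adjusted p 0.0131) and did not pass after median-ratio scaling (-0.24, adjusted p 0.0884).

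Known CREB target genes from other tissues moved in both directions. Of 25 tested, 5 rose and 5 fell with dDAVP, with a median change of -0.21. Over all genes 2.37% rose and 6.51% fell, with a median of -0.16. In GFP-positive cells 11 targets rose and 6 fell, with a median of 0.31, against 12.1% and 23.2% of all genes and a median of -0.06. The counts were the same without GFP-negative replicate 1 of C50 (median 0.18), where 13.4% of all genes rose and 32.6% fell. After median-ratio scaling 5 targets rose and 3 fell with dDAVP, against 4.26% and 2.42% of all genes, and 15 rose and 6 fell between fractions, against 18.2% and 17.5%. After quantile normalization these were 5 and 6 with dDAVP (3.25% and 2.76% of all genes) and 10 and 6 between fractions (19.5% and 19.2%). Pde4b, a cAMP phosphodiesterase, rose from 5.98 ± 1.09 to 36.8 ± 6.26 TPM with dDAVP (SD, n = 3 each), a change of 2.44 (limma adjusted p 0.00034). It rose from 28.2 ± 10.4 to 49.5 ± 15.4 TPM between fractions (SD, n = 8 each), a change of 0.81 (adjusted p 2.14e-05).

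Nr4a2, an orphan nuclear receptor, rose from 26.9 ± 2.54 to 46.0 ± 5.51 TPM with dDAVP (SD, n = 3 each, limma adjusted p 0.0122). Between fractions it rose from 23.6 ± 5.07 to 46.4 ± 13.2 TPM (SD, n = 8 each, adjusted p 0.000134). Rgs2, a regulator of G-protein signalling, rose by 0.75 (adjusted p 0.0248) and 0.53 (adjusted p 0.00475). These were the 3 targets that rose in both comparisons, and they passed in both under either scaling. Fosb fell by 0.83 with dDAVP (adjusted p 0.00991). The circadian repressor gene Per1 rose by 0.80 (adjusted p 0.000155) and the neurotrophin gene Bdnf fell by 2.11 (adjusted p 6.57e-07) in GFP-positive cells.

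The remaining targets called in both comparisons, named after their values were seen, were Fos, Ier2, Areg and Atf3. Fos, a subunit of AP-1, was lower with dDAVP (-0.68, adjusted p 0.00722) and higher in GFP-positive cells (0.64, adjusted p 0.000299), and passed with these signs under both scalings. Ier2 went the same ways (-0.34 and 0.31) but did not pass with dDAVP after median-ratio scaling (adjusted p 0.394) or between fractions after quantile normalization (adjusted p 0.246). Areg, an EGF-receptor ligand, was higher with dDAVP (0.50, adjusted p 0.0431) and lower in GFP-positive cells (-0.74, adjusted p 0.00399). Atf3 fell in both, by 0.41 and 0.64 (adjusted p 0.0134 and 0.000126), and with dDAVP did not pass after median-ratio scaling (adjusted p 0.111).

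**Figure D5:**
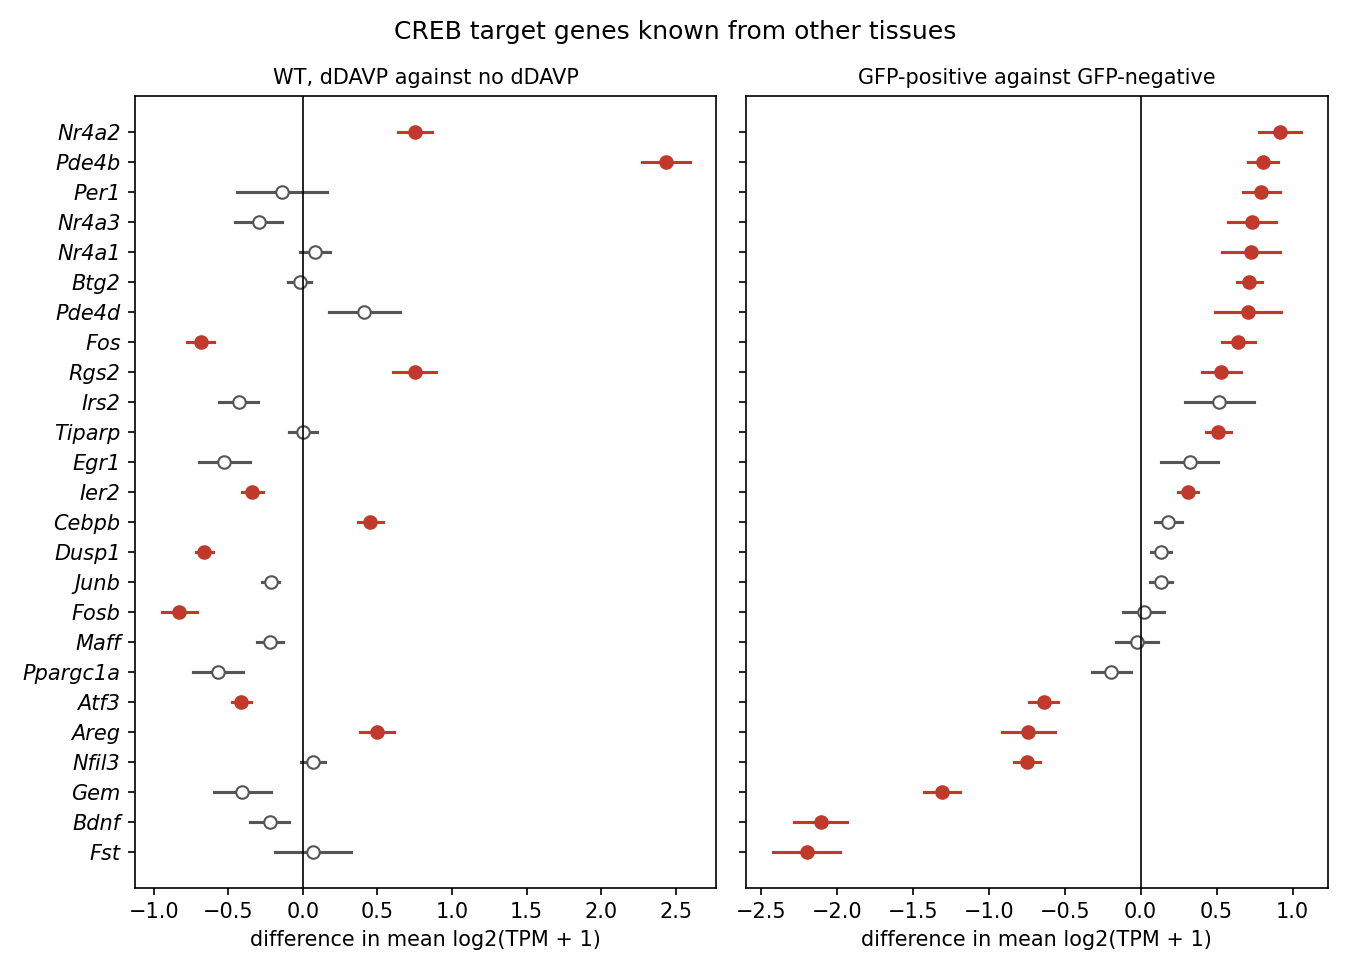
Difference in mean log2(TPM + 1), with its standard error, of the 25 tested CREB target genes, dDAVP against no dDAVP in WT cells (left) and GFP-positive against GFP-negative cells (right), ordered by the right panel. Filled red points passed an adjusted p of 0.05. With dDAVP 5 rose and 5 fell, and between fractions 11 rose and 6 fell, with Pde4b, Nr4a2 and Rgs2 filled to the right of 0 in both.

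RefSeq promoters were matched for 24 of the 29 listed targets. Of these genes, 5 (20.8%) held the full element and 21 (87.5%) a half-site in at least 1 promoter, against 1.77% and 19.8% of 27025 genes. The list was drawn from genes known as CREB targets, so a high share is part of how it was chosen. The windows of Pde4b (chr4:102421506-102421540, plus strand, 1 of its 4 promoters in the table), Nr4a2 (chr2:57124095-57124218, minus strand) and Rgs2 (chr1:144004197-144004349, minus strand) are given because these genes rose in both comparisons, with half-sites in capitals.
Pde4b: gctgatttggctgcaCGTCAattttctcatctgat
Nr4a2: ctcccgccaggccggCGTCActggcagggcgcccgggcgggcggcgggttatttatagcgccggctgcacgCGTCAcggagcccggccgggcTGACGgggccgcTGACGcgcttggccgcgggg
Rgs2: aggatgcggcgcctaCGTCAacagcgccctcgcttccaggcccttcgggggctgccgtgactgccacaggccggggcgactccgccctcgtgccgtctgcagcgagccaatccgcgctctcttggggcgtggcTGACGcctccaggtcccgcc
Pde4b held 1 half-site in this promoter, Nr4a2 held 4 and Rgs2 held 2, with no full element in any of these promoters.

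The genes whose mean log2 levels over the 10 groups were most like those of the 3 members with the widest range were found among 9622 genes. The groups share clones and libraries, and the values are descriptions. For Crem, Pearson's r was 0.912 with Akr1c19, 0.899 with Ctsd and 0.885 with Krt23, each of which was lowest in untreated WT cells. Without GFP-negative replicate 1 of C50 these were 0.873, 0.877 and 0.892, and other genes ranked above all 3. Crtc3 resembled Cdc40 (0.961), Mbd6 (0.958) and Usf3 (0.951), each highest in untreated WT cells. Without that library the values were 0.885, 0.898 and 0.763, and other genes ranked above all 3. Crtc1 resembled Hdlbp (0.987), Galnt2 (0.983) and Thap12 (0.975), each lowest in GFP-negative C50 and highest in GFP-positive C1 cells. Without that library they were 0.967, 0.961 and 0.930. The choice of Crtc1 also rested on it, since the ratio of its highest to its lowest group mean was 2.61 with and 2.08 without the library, below the 2.59 of Sik1.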

How the data were processed

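Per the labels' protocols, cDNA was made with the SMART-Seq HT kit and paired-end sequencing followed Nextera XT library preparation. Per the submitters' processing notes, STAR and RSEM were used, and versions, genome build and annotation are not given in the sources used here. The authors deposited TPM per gene and library. The depth behind these values is unknown, and precision rests on the spread between replicates.

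Rows sharing a symbol were summed (55415 rows, 54514 symbols). Genes that averaged 1 TPM or more across the libraries compared were tested on log2(TPM + 1), a scale that understates changes of low genes. Models were fitted with limma 3.58.1 (R 4.3.3, statmod 1.5.0) with a mean-variance trend, two-sided, and p-values were adjusted over all genes tested by Benjamini-Hochberg, with 0.05 as the threshold. The WT comparison used 6 libraries. The GFP comparison used 16 with the clone as covariate, and within-clone, interaction and between-clone tests used the same 16. The script was tested on simulated data. In 0 cases did libraries of a group hold identical values.

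The 9 genes, the pathway lists and the tests were chosen with earlier results of these data known. All 9 genes are described. From each list, genes that passed with a mean TPM of at least 5 could be named, at most 4 per comparison, largest change first, and other names are marked or complete a count. Like genes are the 3 with the highest r to each of the 3 genes with the widest range of group means, at a mean TPM of at least 5.

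Alternatives were a pseudocount of 0.1, a minimum of 5 TPM or none, median-ratio scaling, quantile normalization, no trend, robust moderation, a detected-gene covariate, a replicate block, clone means, and leaving out each library or clone. The sets with fewer and with more genes detected, and the list counts, order of groups and like genes under other settings, were added after seeing the data. Promoter sequences come from RefSeq (GRCm38.p6) and exon overlaps from GENCODE M21, and neither build is known to be the authors' build.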

Additional observations from a re-analysis of the deposited data

How the results depend on the processing

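The same replicate numbers are used on both sides of a comparison, and whether they pair the libraries is not known. The correlations of same-numbered deviations were -0.208, -0.0254 and -0.109 in WT cells and 0.0544, 0.0151, 0.203 and 0.0825 in the clones (C1, C11, C43, C50). They were weak, negative in WT cells and positive in each clone, and so cannot decide whether libraries were paired. With a replicate block, 1 of the 9 genes passed with dDAVP (Crem, 1.30, limma adjusted p 0.0196) and 4 between fractions (Sik1 in addition, 0.51, adjusted p 0.0259), while 122 and 4259 of all genes passed. Within clones the block gave 0 in C1, 0 in C43 and 1 in C50 (4.69%, 12.1% and 23.6% of all genes), and it could not be fitted for the difference between clones because its blocks lie within clones.

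The count with dDAVP was 1 (8.88% of all genes), and it was 2 with a pseudocount of 0.1 (9.96%), 3 with the detected-gene covariate (18.9%) and 1 to 2 when single libraries were left out (2.31% to 15.2%). Between fractions it was 3 (35.3%), and 1 with clone means (19.6%), 6 without clone C50 (40%), 0 in the libraries with fewer genes detected (250 of 12776 genes) and 3 to 5 without single libraries (31.8% to 46%). The interaction count ran from 0 to 6 without single libraries (0.319% to 38.6%). The count of genes that differed between clones was 3 (28%), and 5 after quantile normalization (33.4%), 0 without clone C1 (7.38%), 1 without clone C43 (21.7%) and 2 to 4 without single libraries (20.9% to 44.8%).

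With all genes above 0 tested, the counts within clones were 0 in C1, 0 in C43 and 1 in C50 (1.51%, 3.34% and 5.68% of all genes). Quantile normalization gave 2 in C1, 1 in C11 and 2 in C43 (8.57%, 9.03% and 17.6%), and median-ratio scaling and the detected-gene covariate gave 1 each in C11 (7.58% and 9.43%). Without single libraries the counts ran from 0 to 2 in C1, 0 to 2 in C11, 0 to 3 in C43 and 0 to 6 in C50, while the shares of all genes ran from 2.87% to 16%, 2.42% to 17.8%, 6.58% to 29.8% and 13.7% to 52.2%.

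Signs were compared for the changes with dDAVP and over the 4 clones, and within clones for Crem, Atf1 and Crtc1 and for Sik2 in C50. They turned in these cases. Crtc1 with dDAVP was 0.048 after quantile normalization. Between fractions Sik3 was -0.11 to 0.101 when single libraries were left out, its lowest value without GFP-negative replicate 1 of C50, -0.009 and 0 without GFP-positive replicates 1 and 2 of C50, and it was -0.12 without clone C50 and -0.21 in the libraries with more genes detected. Sik2 between fractions was 0.033 without clone C11, 0.015 without clone C43 and 0.28 in the libraries with fewer genes detected. With single libraries left out, Atf1 in C1 ran from -0.252 to 0.01, the latter without GFP-positive replicate 1 of C1, and Crtc1 in C11 from -0.079 to 0.226, the former without GFP-negative replicate 1 of C11. The cause was not tested in any of these cases, apart from the smaller number of libraries that leaving some out brings. TPM keep no depth, so what depth limits could not be assessed.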
